A study of Homo sapiens with 8 samples.

Results

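The 7 mitochondrially encoded subunits of respiratory complex I, MT-ND1, MT-ND2, MT-ND3, MT-ND4L, MT-ND4, MT-ND5 and MT-ND6, were examined among the 57992 genes counted by RNAseq in RKO cells. RKO cells are a long-established line from a human colon carcinoma. All 8 samples received wnt3a at 50 ng/mL for 24 hours. Of these, 4 carried a control siRNA and 4 an siRNA against A20, with replicates numbered 1 to 4 in each group, and neither the labels nor the methods say whether the replicates were independent experiments, so the errors and p-values given here may cover only a technical spread. No sample without wnt3a was analysed here, and the siRNA lowered A20 in a transfected population rather than deleting it in a clone. The members were selected by name, as the complete set of complex I genes on the mitochondrial chromosome. They were proposed with their difference between A20 siRNA and control siRNA already known, so that difference is described here with its error and is not offered as a test.

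Complex I is the NADH dehydrogenase of the inner mitochondrial membrane. It passes electrons from NADH to ubiquinone and pumps protons across the membrane. The MT-ND proteins form its membrane arm, while the redox centres of its peripheral arm are carried by subunits encoded in the nucleus. MT-ND2, MT-ND4 and MT-ND5 are the antiporter-like subunits, MT-ND1 lies at the joint of the arms close to the quinone site, and MT-ND3, MT-ND4L and MT-ND6 are small subunits near that joint. Each mitochondrial strand is transcribed as a long precursor that is cut at its tRNAs, and the mRNAs then receive a poly(A) tail, with MT-ND6 known as the member whose tail is short or absent.

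On the mitochondrial chromosome of GRCh38, each member is a single exon without introns. MT-ND1 (ENSG00000198888.2) occupies 3307 to 4262, MT-ND2 (ENSG00000198763.3) 4470 to 5511, MT-ND3 (ENSG00000198840.2) 10059 to 10404, MT-ND4L (ENSG00000212907.2) 10470 to 10766, MT-ND4 (ENSG00000198886.2) 10760 to 12137 and MT-ND5 (ENSG00000198786.2) 12337 to 14148, all on the plus strand of the reference and so transcribed from the heavy strand. MT-ND6 (ENSG00000198695.2) lies at 14149 to 14673 on the minus strand and is the member transcribed from the light strand. Their lengths ranged from 297 bases for MT-ND4L to 1812 bases for MT-ND5. The strand was visible in base composition. G made up 35.6% and C 7.05% of the MT-ND6 coding strand, whereas among the 6 other members MT-ND4L had the highest share of G, at 12.1%, and MT-ND3 the lowest share of C, at 29.5%.

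The last 30 bases of each coding sequence are shown because the libraries were made by poly(A) capture, and the capitals mark what the DNA itself holds of the stop codon.
MT-ND1: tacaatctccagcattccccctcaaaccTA
MT-ND2: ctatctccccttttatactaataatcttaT
MT-ND3: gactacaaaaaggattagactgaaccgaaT
MT-ND4L: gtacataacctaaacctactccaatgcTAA
MT-ND4: accccgacatcattaccgggttttcctctT
MT-ND5: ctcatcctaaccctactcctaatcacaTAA
MT-ND6: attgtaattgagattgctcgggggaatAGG
MT-ND1 ends on 2 bases of a stop codon and MT-ND2, MT-ND3 and MT-ND4 end on 1 base, and these stops are known to be completed by the added A residues. MT-ND4L and MT-ND5 carry a complete TAA. MT-ND6 ends on AGG, which terminates translation in human mitochondria.

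At both gene junctions inside the family, the assignment of reads is limited, so these are shown with the plus strand written 5′ to 3′. In the MT-ND4L/MT-ND4 junction (10749 to 10778) the capitals mark the 7 bases that belong to both genes, and in the MT-ND5/MT-ND6 junction (14134 to 14163) they mark MT-ND5 up to its last base.
MT-ND4L/MT-ND4: aacctactccaATGCTAAaactaatcgtcc
MT-ND5/MT-ND6: CTCCTAATCACATAAcctattcccccgagc
MT-ND4L and MT-ND4 are read from a shared bicistronic mRNA, and a read that covers the 7 shared bases cannot be given to either gene alone. MT-ND5 and MT-ND6 meet tail to tail with 0 bases between them. The strand setting of the counting is not given in the sources used here. Among 182 genes of at least 200 exonic bases that lie wholly under exons of the opposite strand only, where the covering gene had at least 8000 counts, 161 had no count in any library, as is the case when strand is ignored. The count of MT-ND6 therefore cannot be told apart from reads of heavy-strand RNA over the same bases, such as the extended 3′ end of the MT-ND5 mRNA.

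Total counts ranged from 23912317 to 30022486 in control libraries and from 21226451 to 34194273 in A20 siRNA libraries, so the groups overlapped in depth, and 3 counts, taken as the floor, corresponded to at most 0.141 counts per 1e6 (CPM). Other CPM values were scaled by the TMM method. TNFAIP3, which encodes A20, was checked first. It stood at 4.92, 5.83, 5.59 and 5.54 CPM in control replicates 1 to 4 and at 3.47, 3.01, 3.40 and 3.43 CPM in A20 siRNA replicates 1 to 4. The groups did not overlap, and A20 siRNA lowered its mRNA by a log2 fold change of -0.71 (SE 0.10, with an adjusted p of 0.00258 in edgeR's quasi-likelihood test). Of 8 epithelial markers, KRT18 (96.1 CPM), EPCAM (17.4 CPM), CDX2 (17.0 CPM) and KRT8 (13.6 CPM, all 4 without TMM scaling) were detected, while CDH1, KRT19 and KRT20 had no count in any library and VIL1 at most 1. Of 8 markers of other cell types, CD68 had 18 to 35 counts per library and none of the others exceeded 4.

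All 7 members were abundant and passed the filter on low counts. Counts per member and library ranged from 5035 for MT-ND4L to 106399 for MT-ND4, both in A20 siRNA libraries. Together the 7 genes took 0.625%, 0.514%, 0.613% and 0.594% of all counts in control replicates 1 to 4, and 0.706%, 0.650%, 0.705% and 0.722% in A20 siRNA replicates 1 to 4. MT-ND4 alone supplied 43.4% to 44.7% of these counts in the 8 libraries. By mean CPM, MT-ND4 ranked 12 and MT-ND5 60 of 13412 tested genes, and the lowest rank, 719, belonged to MT-ND4L. By CPM per kb of gene, the scale on which genes of different length can be compared, MT-ND4 ranked 2 and MT-ND1, the lowest member, 44 of the 13316 tested genes with an annotated length.

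Although the 6 heavy-strand members come from a common precursor, their levels per length differed from each other. Over the 8 libraries the mean level was 2056 ± 235 CPM per kb for MT-ND4, 1105 ± 62.7 for MT-ND3, 863 ± 91.2 for MT-ND4L, 816 ± 96.4 for MT-ND2, 749 ± 100 for MT-ND6, 679 ± 81.3 for MT-ND5 and 490 ± 54.3 for MT-ND1 (SD, n = 8, both siRNA groups included). MT-ND4 stood above MT-ND3 by 1.85-fold within the same libraries, and MT-ND5 above MT-ND1 by 1.38-fold. Each of these 2 differences was seen in 8 of 8 libraries. Among the 6 pairs of neighbours in this order, 5 differed (exact two-sided paired permutation test by sign flips over libraries, p = 0.00781 each, the smallest that 8 libraries allow, and adjusted p = 0.00938 over the 6 pairs). The order was taken from the means of these same libraries, so these p-values describe only how steadily it recurred between libraries. MT-ND4L and MT-ND2 did not pass (1.06-fold, higher in 6 of 8 libraries, p = 0.281, adjusted p = 0.281, exact permutation test). Their log2 difference ranged from -0.24 to 0.30 between libraries. The order of this pair turned between the groups, with MT-ND4L at 849 and MT-ND2 at 740 CPM per kb in the controls, and MT-ND4L at 877 and MT-ND2 at 892 CPM per kb after A20 siRNA.

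**Figure D1:**
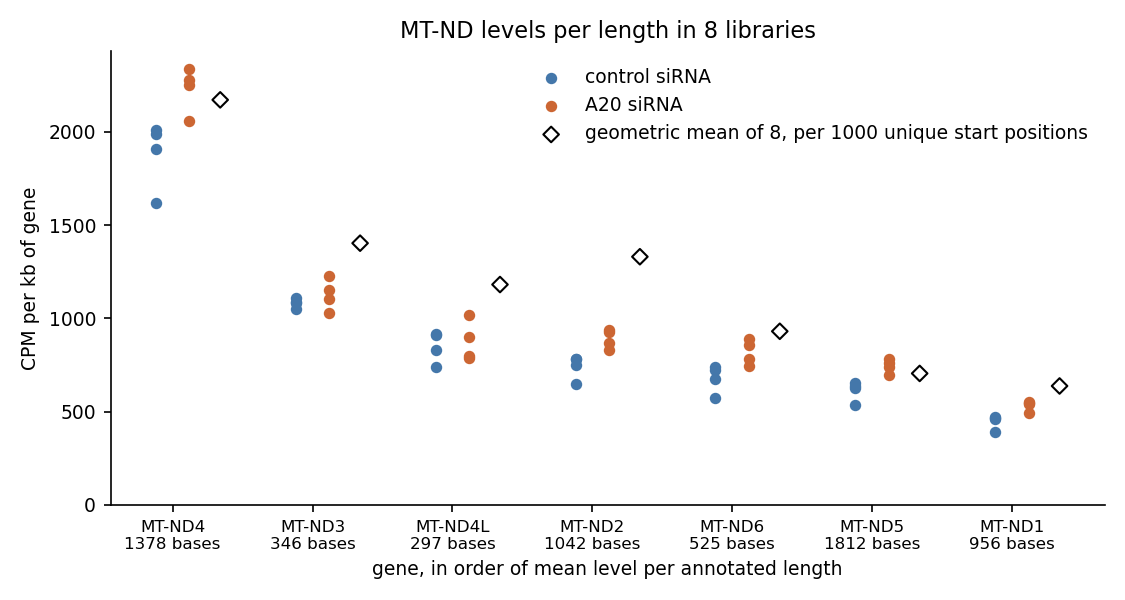
Levels of the 7 members as CPM per kb of annotated gene length (vertical axis) in the order of their means, with a point per library in blue for control siRNA and orange for A20 siRNA. Open diamonds give the geometric mean of all 8 libraries per 1000 start positions at which a 75-base read is unique. MT-ND4 stood highest by either measure, and MT-ND2 moved up most, to 1331, when only unique positions were counted.

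The order in the middle of this list depended on how length was counted. When length was counted as the start positions of 75-base reads that lie wholly inside a gene and touch no other, MT-ND4L stood above MT-ND2 in 8 of 8 libraries (1.35-fold, exact permutation test, p = 0.00781), and MT-ND2 and MT-ND6 were the neighbours that did not differ (1.01-fold, higher in 5 of 8 libraries, exact permutation test, p = 0.367). Only uniquely mapping reads were counted by the authors, and 333 of the 968 possible 75-base reads inside MT-ND2 have an identical copy on a nuclear chromosome, as do 151 of 882 inside MT-ND1 and 32 of 451 inside MT-ND6. No such copy exists for MT-ND3, MT-ND4L or MT-ND4, and MT-ND5 has 3. Per 1000 unique start positions, a measure added after seeing the data, MT-ND2 reached 1331 CPM and passed MT-ND4L, at 1181 CPM. MT-ND3 and MT-ND2 were then the neighbours that did not differ beyond their spread (1.05-fold, exact permutation test, p = 0.281). MT-ND4 remained first and MT-ND1 last by every measure of length tried.

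Counts assigned to MT-ND6, the light-strand member, were lower per length than the mean of the 6 heavy-strand members in 8 of 8 libraries. The ratio was 0.83 over all libraries and ranged from 0.771 to 0.930 (mean log2 difference -0.27 ± 0.10, SD, n = 8, exact two-sided permutation test by sign flips, p = 0.00781). It averaged 0.806 with control siRNA and 0.853 with A20 siRNA. Per annotated length it lay below MT-ND4, MT-ND3, MT-ND4L and MT-ND2 and above MT-ND5 and MT-ND1, but its difference from MT-ND2 was lost when length was counted as read start positions inside each gene. Set against MT-ND5 alone, its neighbour on the other strand, MT-ND6 was higher in 8 of 8 libraries, at 1.11, 1.07, 1.16 and 1.07 times the MT-ND5 level per kb in control replicates 1 to 4 and 1.03, 1.07, 1.16 and 1.14 times in A20 siRNA replicates 1 to 4 (mean log2 difference 0.14 ± 0.06, exact permutation test, p = 0.00781). The mean ratio was 1.10 in either group, and per unique start position it was 1.32 over all libraries. Counts of MT-ND6 may include heavy-strand RNA, and poly(A) capture may miss an mRNA whose tail is short or absent. The ratios therefore do not compare the output of the strands. Their p-values describe only how steadily each ratio recurred between libraries.

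Between A20 siRNA and control siRNA, the 5 members longer than 500 bases were higher after A20 siRNA by 18.6% to 21.1%, while the shortest members, MT-ND3 and MT-ND4L, differed by 4.48% and 3.58%. MT-ND5, the longest member, is described first. It had 1185, 975, 1158 and 1136 CPM in control replicates 1 to 4 and 1374, 1259, 1340 and 1422 CPM in A20 siRNA replicates 1 to 4. Every A20 siRNA library lay above every control library. The means were 1113 ± 94.7 and 1349 ± 68.8 CPM (SD over 4 libraries per group), and the log2 difference between A20 siRNA and control siRNA was 0.28 (SE, the standard error, 0.04).

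The other antiporter-like subunits, MT-ND4 and MT-ND2, differed to a like extent. MT-ND4 had 2767, 2231, 2737 and 2632 CPM in control replicates 1 to 4 and 3103, 2837, 3140 and 3221 CPM in A20 siRNA replicates 1 to 4, and the log2 difference was 0.25 (SE 0.05). MT-ND2 had 815, 678, 814 and 779 CPM in the controls and 902, 868, 967 and 980 CPM after A20 siRNA, and the log2 difference was 0.27 (SE 0.05). The groups were separate for both genes. Control replicate 2 was the lowest library for both and lay well under the other controls.

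MT-ND1, the subunit at the quinone site, had 452, 375, 441 and 445 CPM in control replicates 1 to 4 and 522, 471, 517 and 526 CPM in A20 siRNA replicates 1 to 4, and the log2 difference was 0.25 (SE 0.04). MT-ND6 had 381, 302, 389 and 353 CPM in the controls and 412, 390, 450 and 468 CPM after A20 siRNA, and the log2 difference was 0.27 (SE 0.06). The groups did not overlap for either gene, but for MT-ND6 the highest control library (389.3 CPM) and the lowest A20 siRNA library (390.2 CPM) nearly met. The counts assigned to MT-ND6 had a log2 difference within the 0.25 to 0.28 of the 4 long heavy-strand members. Since they may include heavy-strand RNA over the same bases, nothing is read from this about the light strand.

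MT-ND3 had 374, 363, 376 and 383 CPM in control replicates 1 to 4 and 425, 398, 382 and 356 CPM in A20 siRNA replicates 1 to 4, and the log2 difference was 0.06 (SE 0.04). MT-ND4L had 271, 219, 246 and 273 CPM in the controls and 303, 268, 235 and 237 CPM after A20 siRNA, and the log2 difference was 0.05 (SE 0.07). Both groups overlapped for these genes. In each, A20 siRNA replicates 1 and 2 stood above replicates 3 and 4, which was not the case for the 5 longer members. The direction for MT-ND4L turned without control replicate 2 (log2 fold change -0.01) and without A20 siRNA replicate 1 (-0.035).

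**Figure D2:**
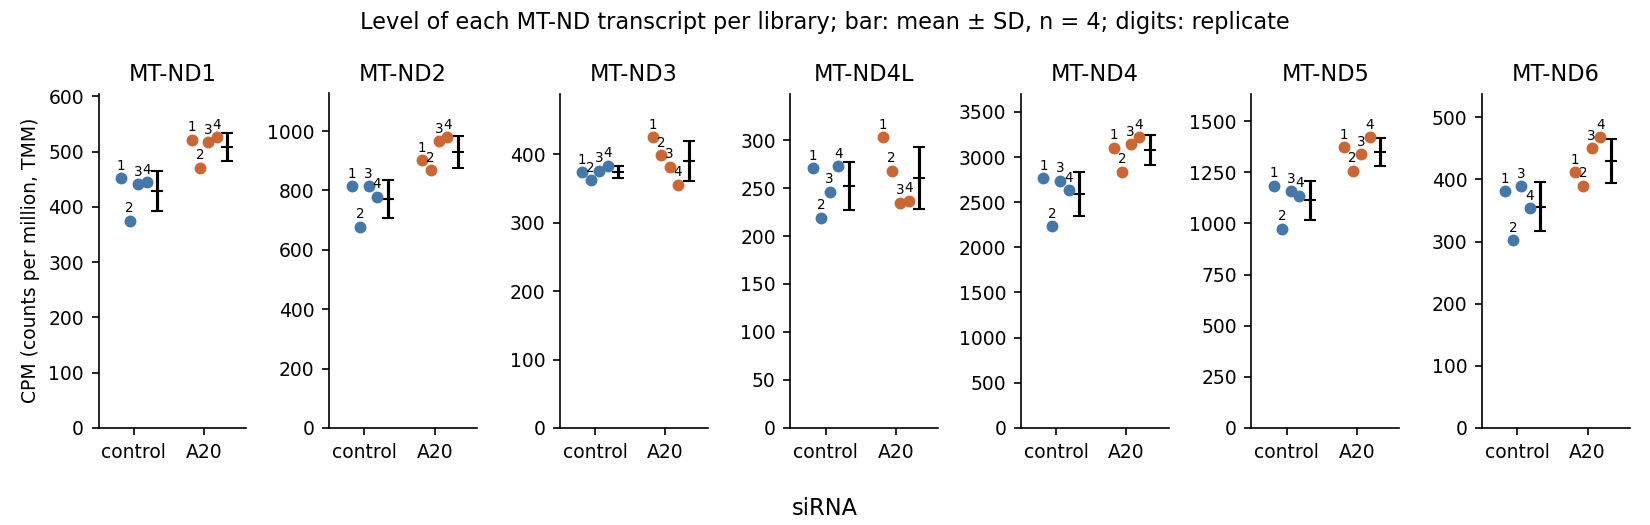
CPM of each member in every library (vertical axes from 0, a different scale in each panel), with blue for control siRNA, orange for A20 siRNA, digits for the replicate number and a bar for mean ± SD (n = 4). The groups are separate for MT-ND1, MT-ND2, MT-ND4, MT-ND5 and MT-ND6 and overlap for MT-ND3 and MT-ND4L, and control replicate 2 is the lowest control for all 7.

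In edgeR's quasi-likelihood test, 5 of the 7 members had an adjusted p-value under 0.05, all higher after A20 siRNA, where 0.634% of all 13412 tested genes were called higher and 1.25% in either direction. Every A20 siRNA library was above every control library for these 5 members, as was the case for 3.71% of all tested genes. Since the family was proposed from this contrast, nothing is read from these counts. The median log2 fold change was 0.25 over the 7 members and 0.003 over all tested genes. The number of members called fell to 1, MT-ND5, without A20 siRNA replicate 3, and to 3 without A20 siRNA replicate 4, without control replicate 4 or with DESeq2, whereas over all genes these fits called 12, 51, 16 and 205 against 167. Because RNA was taken in bulk, a higher share of these transcripts in every cell cannot be told apart from a larger number of cells rich in them.

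The long members varied together between replicates of a group. Control replicate 2 was the lowest control for 7 of 7 members and the lowest of all 8 libraries for 6 of 7. Its mean log2 deviation from the control average was -0.18, against 0.04 to 0.08 for the other controls. In the A20 siRNA group replicate 2 was the lowest for 5 members and replicate 4 the highest for 5. Without control replicate 2, the median log2 fold change of the family was 0.19, and without A20 siRNA replicate 2 it was 0.28.

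Ratios between members within a library do not depend on the scaling between libraries. The MT-ND4L to MT-ND4 ratio of CPM per kb, which compares both ends of a shared mRNA, was 0.454, 0.456, 0.418 and 0.481 in control replicates 1 to 4. It was 0.453 and 0.438 in A20 siRNA replicates 1 and 2, within the control range, but 0.347 and 0.341 in replicates 3 and 4, under every other library. The MT-ND3 to MT-ND4 ratio was 0.539, 0.647, 0.547 and 0.580 in the controls and 0.546, 0.559, 0.485 and 0.440 after A20 siRNA, again with A20 siRNA replicates 3 and 4 under every other library. By contrast, the MT-ND2 to MT-ND1 ratio kept between 1.58 and 1.72 and the MT-ND4 to MT-ND5 ratio between 2.96 and 3.11 in all 8 libraries. A20 siRNA replicates 3 and 4 were also the closest pair of replicates over all genes. Their chi-square per degree of freedom was 1.31, and the next closest pair, control replicates 3 and 4, had 2.04. RNA integrity is given in the paper as a range over the samples and not per library. Its part in the MT-ND4L to MT-ND4 and MT-ND3 to MT-ND4 ratios was not tested.

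**Figure D3:**
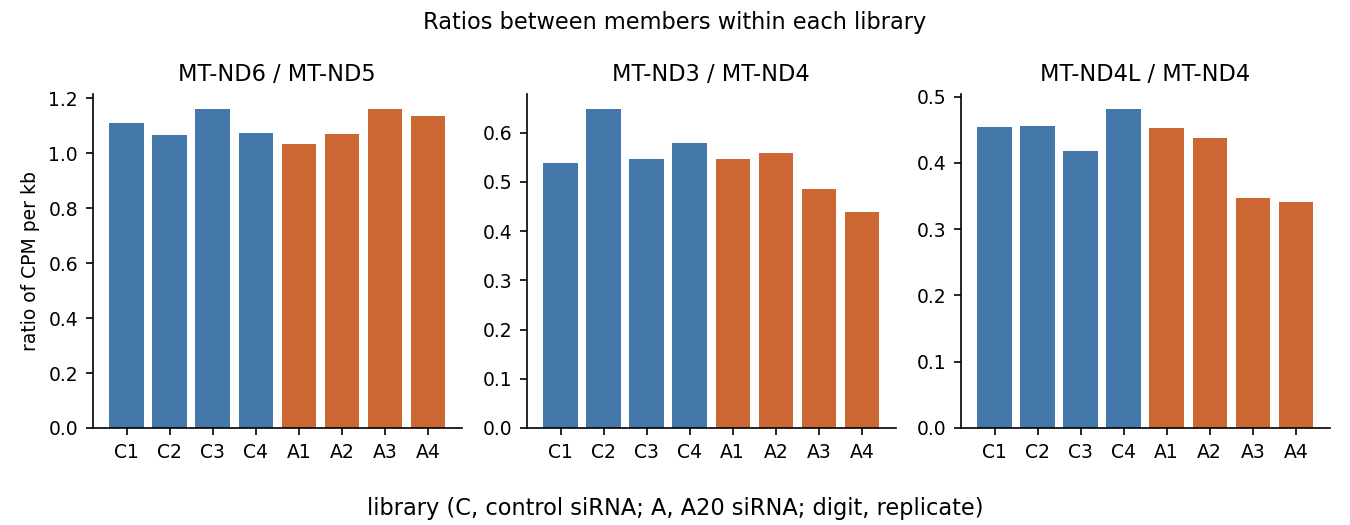
Ratios of CPM per kb between members (vertical axes from 0) in each library, with C for control siRNA in blue, A for A20 siRNA in orange and the digit for the replicate. MT-ND6 to MT-ND5 lay between 1.03 and 1.16 throughout, whereas MT-ND3 to MT-ND4 and MT-ND4L to MT-ND4 were lowest in A20 siRNA replicates 3 and 4.

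The 6 other mitochondrial mRNAs were read in the same way. MT-ATP6 (log2 fold change 0.24), a subunit of ATP synthase, MT-CYB (0.19) of complex III and MT-CO1 (0.19) of complex IV were higher after A20 siRNA with adjusted p-values of 0.0119, 0.0333 and 0.0467 in edgeR's test, and DESeq2 called 1 of the 3. MT-CO2 (0.10) and MT-CO3 (0.11) did not pass, and MT-ATP8, the shortest of the 13 mRNAs at 207 bases, had a log2 fold change of -0.23 (SE 0.13). MT-ATP8 had 176, 139, 135 and 184 CPM in control replicates 1 to 4 and 187, 135, 115 and 98.3 CPM in A20 siRNA replicates 1 to 4, so that replicates 3 and 4 of A20 siRNA were again the lowest. The 3 mRNAs under 500 bases had the 3 smallest log2 differences of the 13. Among nuclear genes, the median log2 fold change was 0.02 for 253 genes of up to 500 exonic bases and 0.004 for 11385 genes over 2000 bases. For lengths between these it was -0.007 in the 508 shorter genes and -0.035 in the 1152 longer genes. The shortest nuclear genes thus did not have the lowest median. The 1152 genes had median log2 deviations of -0.03 and -0.04 in A20 siRNA replicates 3 and 4. In the other libraries these medians ranged from -0.005 to 0.05. Across all tested genes with a length, the Spearman correlation of a library's log2 deviation from the mean of all 8 with gene length was 0.07, -0.08, 0.14 and 0.18 in A20 siRNA replicates 1 to 4 and ranged from -0.20 to 0.08 in the controls, and its part in the values of the short members was not tested.

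**Figure D4:**
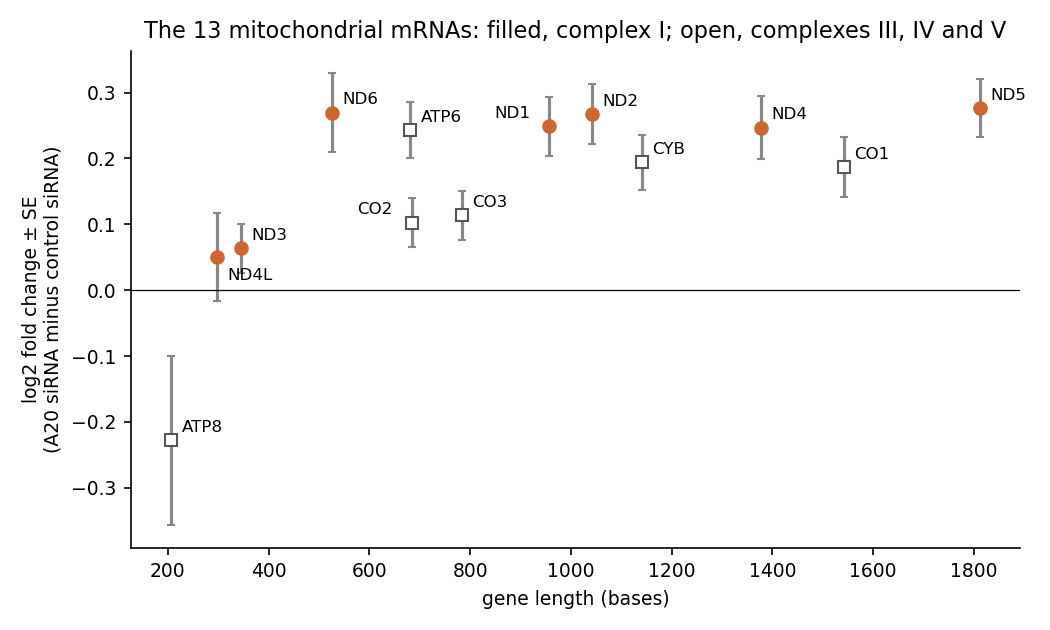
Log2 fold change of A20 siRNA minus control siRNA (vertical axis, bars ± SE) against gene length in bases for the 13 mitochondrial mRNAs, filled for complex I and open for complexes III, IV and V. MT-ATP8, MT-ND4L and MT-ND3, the 3 shortest, had the 3 lowest values, at -0.23, 0.05 and 0.06.

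Within the 13 mRNAs, the 7 members took 44.1% ± 0.580 of the counts in the controls and 45.4% ± 0.579 after A20 siRNA (SD, 4 libraries in each). The lowest A20 siRNA library (44.8%) was above the highest control library (44.7%), and the margin was smaller than the SD of either group.

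Nuclear genes for complex I mostly had differences of the opposite sign. Of 37 listed core and accessory subunits 36 were tested, 32 had a log2 fold change below 0 and 4 above, and the median was -0.07, beside 0.003 for all tested genes. Of all tested genes, 51.6% had a log2 fold change above 0. The called gene was NDUFS5, an accessory subunit, at 169 ± 4.38 CPM in the controls and 155 ± 5.06 CPM after A20 siRNA (SD over 4 libraries, log2 difference -0.12, SE 0.03, adjusted p = 0.0334 in edgeR's test). Over all genes 0.611% were called lower, and 3.90% had every A20 siRNA library below every control, as NDUFS5 did. With DESeq2, 4 accessory subunits passed, where 205 of all 13412 genes were called in either direction. None of the 7 core subunits was called by edgeR, DESeq2 or limma-voom, and 2 of them had an unadjusted p-value under 0.05 in edgeR, as had 14 of the 29 accessory subunits tested. The share of all tested genes under that unadjusted threshold is not given here. Nothing is therefore read from these unadjusted counts or from those of the other lists.

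The summed level of the 36 nuclear transcripts was 2168, 2229, 2186 and 2288 CPM in control replicates 1 to 4 and 2148, 2174, 2057 and 2046 CPM in A20 siRNA replicates 1 to 4, so the groups overlapped. The sum of the 7 MT-ND transcripts was 6245, 5142, 6163 and 6002 CPM in the controls and 7041, 6492, 7031 and 7210 CPM after A20 siRNA. The ratio of mitochondrial to nuclear complex I transcripts was 2.88, 2.31, 2.82 and 2.62 in the controls and 3.28, 2.99, 3.42 and 3.52 after A20 siRNA. Every A20 siRNA library was above every control library for this ratio. The MT-ND sums alone were already separate, and their difference was known when the family was proposed, so nothing is read from the separation of the ratio.

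**Figure D5:**
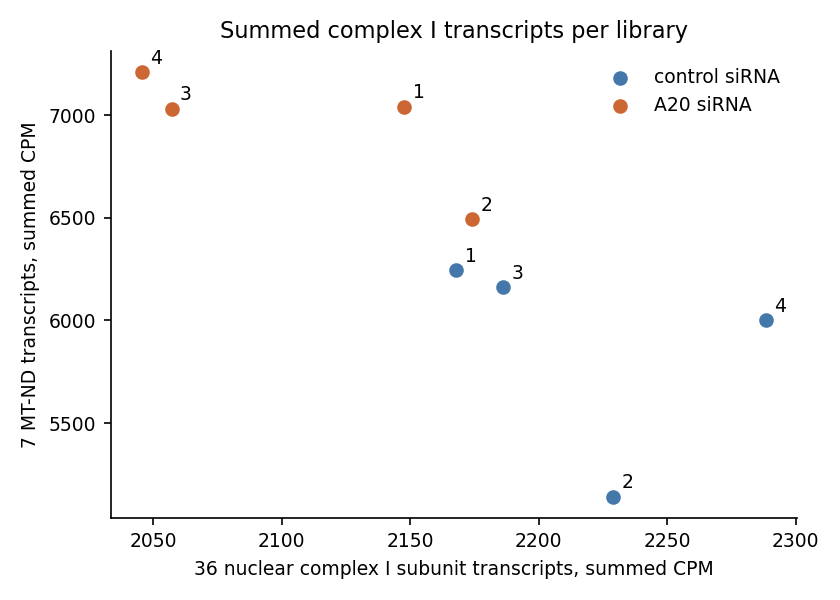
Summed CPM of the 7 MT-ND transcripts (vertical axis) against the summed CPM of 36 nuclear complex I subunit transcripts (horizontal axis), with a point per library, its replicate number, blue for control siRNA and orange for A20 siRNA. A20 siRNA libraries lie at 6492 to 7210 on the vertical axis and the controls at 5142 to 6245, while the horizontal ranges overlap. The axes do not start at 0.

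Complex I assembly factors and the machinery that makes and keeps mitochondrial RNA had medians close to 0. Of 17 assembly factors, 7 were higher and 10 lower in sign with a median log2 fold change of -0.02, and none was called by edgeR, DESeq2 or limma-voom (3 had an unadjusted p-value under 0.05 in edgeR). Of 20 tested genes of mitochondrial transcription and RNA stability, 12 were higher and 8 lower in sign with a median of 0.004. The called gene was SLIRP, which together with LRPPRC binds mitochondrial mRNAs and keeps them stable. Its level was 49.0 ± 2.46 CPM in the controls and 40.4 ± 4.79 CPM after A20 siRNA (SD over 4 libraries, log2 difference -0.27, SE 0.06, adjusted p = 0.0337 in edgeR's test). Over all genes 0.611% were called lower by edgeR. DESeq2 called no gene of this list and limma-voom called 1. LRPPRC itself had a log2 fold change of 0.001 (SE 0.02).

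Few uniquely mapping reads were counted on nuclear copies of the members. Reads identical between a copy and a mitochondrial gene were counted for neither, so these counts do not measure how many reads the copies gave. Of 214 annotated MTND pseudogenes, 170 had no count in any library, and the summed mean count of all of them was equal in size to 1.40% of that of the members. The highest were MTND1P23 (chromosome 1, 629062 to 629433, 1429 counts on average), MTND2P28 (chromosome 1, 629640 to 630683, 816 counts) and MTND4P12 (chromosome 5, 134926660 to 134928036, 113 counts). MTND2P28 was called, with a log2 fold change of 0.25 (adjusted p = 0.0233 in edgeR's test). MTND1P23 (0.21, adjusted p = 0.0743) and MTND4P12 (0.08, adjusted p = 0.753) did not pass the same test in edgeR. Reads from such a copy and from a mitochondrial genome that differs from the reference cannot be told apart in these counts.

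The genes whose pattern between libraries was most like that of the family were found by the Pearson correlation of log2 CPM, each library minus its group mean, with the mean of the 7 members over the 8 libraries, as a description without a test. Of 13405 other genes, the closest were DNAAF10 (0.986), MT-CO2 (0.976), CHD7 (0.971), SPTBN1 (0.969) and a gene listed by its identifier alone, ENSG00000275759 (0.967), which has a mean of 0.461 CPM. With control replicate 2 left out, the values over 7 libraries were 0.950, 0.938, 0.908, 0.886 and 0.877 in the same order. The control means subtracted still included that library, which was the lowest control for the family. These values therefore do not show how much likeness remains without it. Among the other mitochondrial mRNAs MT-CYB (0.956) and MT-CO1 (0.941) followed, and MT-ATP8 was far from the pattern (0.310).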

How the data were processed

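RNAseq of poly(A)-captured RNA was analysed from 8 RKO samples, grouped and numbered by their labels. The authors trimmed single reads of 75 bases with Trimmomatic, mapped them to GRCh38.p7 with STAR and deposited raw counts of uniquely mapping reads per gene. Tool versions, the GENCODE release and the strand setting are not given in the sources used here. Of 57992 genes, 56948 matched GENCODE release 44 (GRCh38) by identifier without version, which supplied symbols, coordinates and lengths. Sequences and copies of 75-base reads were taken from hg38, with copies searched on the assembled nuclear chromosomes only.

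From these counts, edgeR 4.0.16 (R 4.3.3) was run with filterByExpr (minimum count 10, leaving 13412 genes), TMM, the quasi-likelihood test without covariates, and Benjamini-Hochberg adjustment at 0.05. Standard errors came from the log2 fold change and F. Levels per length were tested by exact sign flips over the libraries. The pipeline was tested on simulated data. Floors cover counting error only. Chi-square per degree of freedom between replicates of a group was 1.31 to 3.69, so no library held the same counts as another of its group. Libraries of different groups were not compared in this way. The members and lists were chosen with earlier results of these data known. Named genes were the members, TNFAIP3, the other mitochondrial mRNAs and rRNAs, called genes of each list, the 3 highest MTND pseudogenes and the 5 genes closest in pattern. Alternatives were RLE factors, normalization without mitochondrial genes, no filter, DESeq2 1.42.0, limma-voom (limma 3.58.1), a replicate block, a length correction (loess, span 0.5), other length measures and each sample left out. The unique start positions, MT-ND5 as the lone reference and the median over 5 members were added after seeing the data.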

Additional observations from a re-analysis of the deposited data

Results flagged for a closer look

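A library standing far from its group was sought in 44 sets of 4 values, and 7 cases were found, where chance gives about 1 in 20. The values of different transcripts in a library are not independent of each other. Control replicate 2 lay below the other controls for MT-ND1 (374.9 CPM against 441.5 to 452.1), for MT-CO2 (888.5 CPM against 1015 to 1032) and for MT-CYB (949.6 CPM against 1111 to 1134). Among A20 siRNA libraries, replicate 2 had the lowest TNFAIP3 (3.01 CPM against 3.40 to 3.47), and the MT-ND4 to MT-ND5 ratio per kb was highest in replicate 3 (3.08 against 2.96 to 2.98). A20 siRNA replicate 1 lay below the others for the ribosomal RNAs MT-RNR1 (227.6 CPM against 619.3 to 677.3) and MT-RNR2 (933.5 CPM against 1360 to 1397).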

How the results depend on the processing

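Against 167 genes called over all genes, there were 624 without a low-count filter, 318 with the length correction, 474 with the replicate block and 571 with the block and length correction, and 12 to 997 with each sample left out in turn. Of the 7 members, 5 were called with RLE factors, without mitochondrial genes in the normalization, without the filter, with limma-voom, with the length correction and with the replicate block, 3 with DESeq2, and 1 to 5 with a sample left out; the cause was not tested. Whether the replicate numbers pair the samples was not settled. Over all tested genes, deviations of same-numbered samples correlated by -0.01 to 0.08, but differently numbered samples were not compared, and the block raised the calls to 474. With the block, the median log2 fold change of the family was 0.25. That median ranged from 0.24 to 0.27 over the other alternatives and from 0.19 to 0.28 with a sample left out. MT-ND4L turned to -0.01 without control replicate 2 and to -0.035 without A20 siRNA replicate 1, within a range of -0.035 to 0.097. TNFAIP3 kept its direction in all of these fits, from -0.77 to -0.67 with a sample left out, and received no adjusted p-value from DESeq2. MT-ND6 against the heavy-strand mean was -0.29 to -0.26 with a sample left out and became 0.14 on the log2 scale against MT-ND5 alone. The number of neighbouring pairs that differed was 5 with each length measure, but the pair that did not differ was MT-ND4L and MT-ND2 with annotated length, MT-ND2 and MT-ND6 with start positions and MT-ND3 and MT-ND2 with unique start positions. MT-ND5 had a higher log2 fold change than MT-ND6 (0.28 and 0.27), which turned without control replicate 3 (0.29 and 0.31), without A20 siRNA replicate 1 (0.26 and 0.29) and without A20 siRNA replicate 2 (0.306 and 0.312). The share of counts differed by 0.109 percentage points of all counts, 0.0851 to 0.125 with a sample left out, and by 1.26 points of the 13 mitochondrial mRNAs.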

Other observations

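The mitochondrial ribosomal RNAs, which are transcribed from the same heavy strand upstream of MT-ND1, had higher means after A20 siRNA, with log2 fold changes of 0.50 for MT-RNR1 (SE 0.27) and 0.31 for MT-RNR2 (SE 0.12), both larger than that of any member and with a wider spread between replicates. MT-RNR1 had 253, 223, 603 and 462 CPM in control replicates 1 to 4 and 228, 655, 619 and 677 CPM in A20 siRNA replicates 1 to 4. MT-RNR2 had 898, 801, 1285 and 1110 CPM in the controls and 934, 1397, 1384 and 1360 CPM after A20 siRNA. The groups overlapped for both genes, and neither was called by edgeR (adjusted p = 0.377 for MT-RNR1 and 0.184 for MT-RNR2), DESeq2 or limma-voom, while 1 of them, MT-RNR2, had an unadjusted p-value under 0.05 in edgeR. A20 siRNA replicate 1 and control replicates 1 and 2 were the low libraries for both rRNAs, while A20 siRNA replicate 1 was not the lowest A20 siRNA library for any MT-ND transcript. Of 10 tested genes listed as markers of RNA without a regular poly(A) tail, chiefly histone genes, 4 were higher and 6 lower in sign after A20 siRNA. Whether their RNA lacked a tail in these cells was not tested. Their summed level was 104 to 121 CPM with control siRNA and 102 to 118 CPM with A20 siRNA. H1-2 was the largest part of it, at 51.8 and 50.6 CPM on average, so the sum says little of the others. Single log2 fold changes ranged from -0.35 (H2AC20, SE 0.16) to 0.71 (H1-3, SE 0.40). None of these 10 was called by edgeR, DESeq2 or limma-voom, and 1 had an unadjusted p-value under 0.05 in edgeR.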
